A study of Mus musculus with 8 samples.

Results

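Aminoacyl-tRNA synthetases were measured as 34 genes, 19 cytosolic and 15 mitochondrial, of 18193 genes on the array. A gene was taken as a member where its probe sets carried 1 gene symbol made of an amino acid letter and ars, with Eprs for the fused glutamyl-prolyl enzyme and Farsa, Farsb and Fars2 for the phenylalanyl enzymes. Symbols ending in 2 were counted as mitochondrial. The members held 71 of the 45037 probe sets, 40 cytosolic and 31 mitochondrial. Gars and Kars, the glycyl and lysyl enzymes, serve both compartments and were counted as cytosolic. The aspartyl enzymes were not analysed here.

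The RNA came from the mouse line 32Dcl3, myeloid progenitors that depend on IL-3 (interleukin-3) for growth and take on neutrophil features when given G-CSF, the granulocyte colony-stimulating factor. All cells were retrovirally transduced, either with FLAG-tagged ASXL1-MT, a mutant form of a chromatin regulator, in pMYs-IG or with empty pMYs-IG (mock). Each was sampled at 0 h (IL-3) and at 2, 6 and 24 h of G-CSF, with 1 array per condition and 8 in all. The labels give neither the species and mutation of the ASXL1 cDNA, nor whether IL-3 was withdrawn, nor whether the time points were separate cultures or the line a clone. The ASXL1-MT and mock cultures therefore stood in for replicates of a time point, and the p-values measure only how alike these 2 cultures moved.

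Each synthetase joins 1 amino acid to its tRNA, the step that supplies the ribosome with charged tRNA. The cytosolic enzymes serve translation of nuclear-encoded mRNA and fall into 2 structural classes, I and II. Several of them sit in the multisynthetase complex, held together by the scaffold proteins AIMP1, AIMP2 and EEF1E1. The mitochondrial enzymes, mostly encoded by separate nuclear genes, charge the tRNAs of the mitochondrial genome. ATF4, the transcription factor induced when uncharged tRNA activates the kinase GCN2, is known to drive many cytosolic synthetase genes, and MYC is known to drive genes of growth and translation.

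The promoters were examined for the elements bound by these factors. The window of 250 bases before to 50 after the start was taken from RefSeq (GRCm38.p6), which gave a window for 26 of the 34 genes. The core of the composite element bound by ATF4 with C/EBP proteins, searched as TGATGNAA on both strands, was in 5 of the 26. All 5 were cytosolic (Aars, Gars, Iars, Tars and Yars, of 12 with a window), and 0 of 14 mitochondrial windows held it, against 4.51% of 27025 genes. The E-box CACGTG, bound by MYC with MAX, reads the same on both strands and was in 4 of the 12 cytosolic windows (Aars, Farsb, Iars and Tars) and 1 of the 14 mitochondrial ones (Ears2), against 8.09% of genes. These 2 elements share no letters where they match. The 5 windows with the ATF4 core are shown because they carry that contrast between compartments, followed by Qars and Yars2, the called genes with the largest change against and with the direction of the rest. Capitals mark both motifs.
Tars, chr15:11399609-11399908, minus strand: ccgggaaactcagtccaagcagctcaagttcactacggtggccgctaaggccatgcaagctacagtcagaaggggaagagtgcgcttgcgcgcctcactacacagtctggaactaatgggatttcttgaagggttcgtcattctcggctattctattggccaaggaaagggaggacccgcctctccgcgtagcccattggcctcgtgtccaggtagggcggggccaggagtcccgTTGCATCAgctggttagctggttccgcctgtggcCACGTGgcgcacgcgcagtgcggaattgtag
Iars, chr13:49681880-49682179, plus strand: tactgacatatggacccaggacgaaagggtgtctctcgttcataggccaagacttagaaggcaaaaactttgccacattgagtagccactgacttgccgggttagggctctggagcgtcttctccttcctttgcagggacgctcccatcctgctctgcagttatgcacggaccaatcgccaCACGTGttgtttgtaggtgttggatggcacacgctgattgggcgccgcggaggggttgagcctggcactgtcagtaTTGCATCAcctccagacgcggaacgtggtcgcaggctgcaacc
Gars, chr6:55037751-55038050, plus strand: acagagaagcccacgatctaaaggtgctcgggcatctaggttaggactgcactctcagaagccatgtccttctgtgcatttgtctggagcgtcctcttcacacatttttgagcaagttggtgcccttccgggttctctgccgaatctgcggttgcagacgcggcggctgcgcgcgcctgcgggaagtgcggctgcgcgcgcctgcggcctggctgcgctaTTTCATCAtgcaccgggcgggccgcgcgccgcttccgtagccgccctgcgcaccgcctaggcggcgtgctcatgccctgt
Yars, chr4:129189653-129189952, plus strand: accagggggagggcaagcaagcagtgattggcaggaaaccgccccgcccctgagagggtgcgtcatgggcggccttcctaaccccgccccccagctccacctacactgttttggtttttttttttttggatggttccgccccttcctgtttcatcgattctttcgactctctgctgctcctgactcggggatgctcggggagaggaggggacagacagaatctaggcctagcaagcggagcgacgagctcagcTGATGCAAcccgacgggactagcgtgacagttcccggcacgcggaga
Aars, chr8:111033592-111033891, plus strand: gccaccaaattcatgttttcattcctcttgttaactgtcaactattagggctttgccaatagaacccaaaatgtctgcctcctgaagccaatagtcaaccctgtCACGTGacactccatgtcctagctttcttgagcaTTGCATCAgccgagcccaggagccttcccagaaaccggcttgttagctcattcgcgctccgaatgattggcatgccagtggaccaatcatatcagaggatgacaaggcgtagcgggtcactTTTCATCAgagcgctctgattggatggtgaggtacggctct
Qars, chr9:108507755-108508054, plus strand: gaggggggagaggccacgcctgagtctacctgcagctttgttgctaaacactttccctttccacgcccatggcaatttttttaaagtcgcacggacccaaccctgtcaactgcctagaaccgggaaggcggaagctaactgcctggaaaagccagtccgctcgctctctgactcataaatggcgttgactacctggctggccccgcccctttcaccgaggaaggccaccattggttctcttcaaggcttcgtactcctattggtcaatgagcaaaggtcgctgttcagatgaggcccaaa
Yars2, chr16:16302715-16303014, plus strand: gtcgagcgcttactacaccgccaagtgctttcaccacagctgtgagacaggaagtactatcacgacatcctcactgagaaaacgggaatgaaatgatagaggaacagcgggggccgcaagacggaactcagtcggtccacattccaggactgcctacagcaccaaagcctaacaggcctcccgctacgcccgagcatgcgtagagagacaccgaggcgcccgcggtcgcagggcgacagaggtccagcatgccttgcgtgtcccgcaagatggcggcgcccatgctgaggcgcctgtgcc
In Tars the core began 15 bases before the start, in Gars 30 bases before it, in Iars 7 bases after it and in Yars 3 bases after it. Aars held it at 112 bases before and 9 bases after the start. Among the cytosolic genes with a window, 4 of the 5 with the core were called lower at 24 h (median log2 change -0.74), against 3 of the 7 without it (median -0.68). Of the 4 with an E-box, 4 were called lower at 24 h, against 3 of the 8 without one. At 6 h 2 of the 5 with the core and 1 of the 7 without it were called lower (medians -0.61 and -0.16). With and without an E-box these were 3 of 4 and 0 of 8. The shares over all genes tested were 7.24% lower at 6 h and 11.8% at 24 h. Rars, Wars and Hars, whose falls were among the largest, had no window and are not in these counts. A match is a run of letters, not evidence of binding, and these counts were not tested.

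The deposited value of a probe set is its log2 expression minus its own median over the 8 arrays, so that genes can be compared only by their differences. Each gene was read from a single probe set, chosen by its estimated level rounded to a whole number, then by probe set type and name. The one used need not be the brightest of its gene. All 34 members passed the filter on dim genes, which 12986 of 18193 genes passed. Array medians over all probe sets lay between -0.04 and 0.06. The cells' identity was checked against marker lists: 7 of 9 myeloid progenitor markers lay at an estimated log2 level of 8 or more, against 0 of 8 lymphoid markers. The 7 neutrophil maturation markers tested were all called higher at 24 h, Lcn2 by 4.33 and Ngp by 4.95. Over all 10 neutrophil markers on the array, 3 of them too dim to be tested, the summed value in IL-3 and at 2, 6 and 24 h was -6.55, -3.40, -2.55 and 17.6 in ASXL1-MT cells, and -0.40, -2.86, -2.51 and 14.7 in mock cells. Of 8 eosinophil, basophil and mast cell markers tested, 6 were called higher at 6 h and 6 at 24 h, Prg2 by 6.51 at 24 h on a dim probe set. Of all genes tested, 9.82% were called higher at 6 h and 14.6% at 24 h. At 24 h 3 of 5 monocyte and macrophage markers tested were also called higher, Mpeg1 by 5.46 ± 0.92 on a dim probe set. So were 6 of 7 myeloid progenitor markers, Elane by 2.26. Of 3 erythroid markers tested, 2 were called higher at 6 h, and 1 lower and 1 higher at 24 h. The called markers moved with the time in G-CSF, as the synthetases did, and their part in the synthetase changes was not tested. In bulk RNA a smaller share of cells of a kind cannot be told apart from less RNA per cell.

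After 24 h in G-CSF, 12 of the 19 cytosolic synthetase genes were lower than in IL-3 and none was higher. The largest falls were in Rars, Iars, Wars and Hars, which charge arginine, isoleucine, tryptophan and histidine. Rars mRNA fell to 0.507 of its IL-3 level. The mitochondrial enzymes had 3 genes lower of 15, led by Yars2, the tyrosyl enzyme, which fell to 0.428 of its IL-3 level. Over all genes tested, 11.8% were called lower and 14.6% higher (limma, Benjamini-Hochberg adjusted p under 0.05). The median log2 change at 24 h was -0.68 over the cytosolic genes and -0.40 over the mitochondrial genes, and 0.09 over all genes tested.

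**Figure D1:**
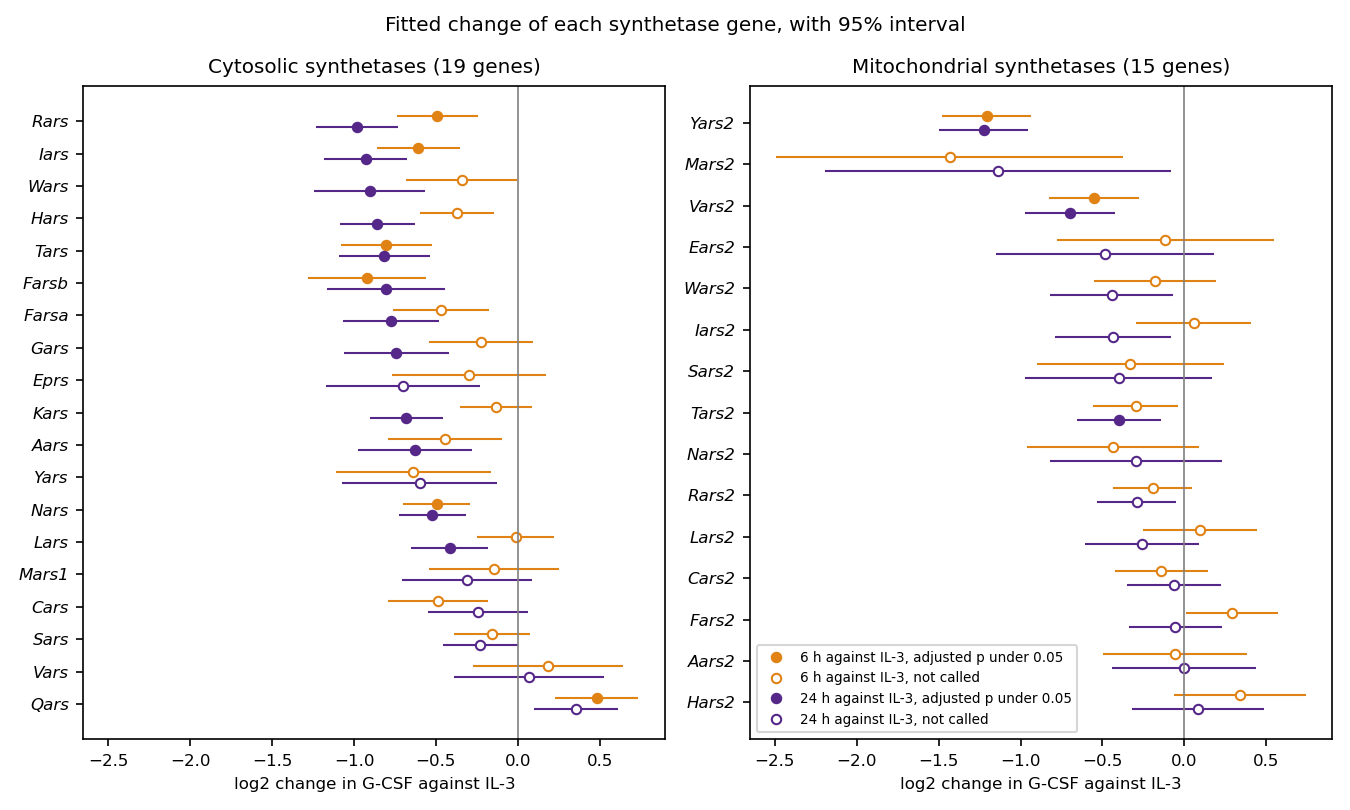
Log2 change of the 34 synthetase genes after 6 h (orange) and 24 h (purple) in G-CSF against IL-3, with the 95% interval of the fit over 8 arrays. Filled points passed an adjusted p of 0.05. At 24 h, 12 of 19 cytosolic and 3 of 15 mitochondrial genes are filled, all to the left of 0, and Qars lies farthest to the right.

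The values on single arrays show the course of the called genes, but they are those the fit used and so are no separate check of the calls. Rars stood at 0.20, 0.25, -0.20 and -0.70 in IL-3 and at 2, 6 and 24 h in ASXL1-MT cells, and at 0.30, 0.27, -0.29 and -0.76 in mock cells. Both cultures thus had Rars high in IL-3 and at 2 h, lower at 6 h and lowest at 24 h, with a change at 24 h of -0.98 ± 0.09 (SE, adjusted p = 0.00839). The isoleucyl enzyme Iars followed the same order: it stood at 0.26, 0.36, -0.26 and -0.58 in ASXL1-MT cells and at 0.28, 0.26, -0.43 and -0.75 in mock cells, a change at 24 h of -0.93 ± 0.09 (adjusted p = 0.0092). Hars, for histidine, had 0.19, 0.14, -0.14 and -0.65 in ASXL1-MT cells and 0.14, 0.15, -0.27 and -0.73 in mock cells, a change of -0.86 ± 0.08 (adjusted p = 0.00885). For all 3 genes the arrays at 6 and 24 h lay below every array in IL-3 and at 2 h, as did those of 12.5% of all genes tested.

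Wars, the tryptophanyl enzyme, is measured by 4 probe sets. On the one used here its values in IL-3 and at 2, 6 and 24 h were 0.13, 0.65, -0.03 and -0.61 in ASXL1-MT cells and 0.03, 0.30, -0.50 and -1.03 in mock cells. The highest array of each culture was the one at 2 h, where the change of 0.39 did not pass (adjusted p = 0.573), and the other 3 probe sets changed by 0.05, 0.10 and 0.13 there. The change of Wars at 24 h was -0.90 ± 0.12 (adjusted p = 0.0154), and all 4 of its probe sets were called lower there. Gars, with a single probe set, was highest at 2 h in both cultures, at 0.13, 0.25, -0.07 and -0.76 in ASXL1-MT cells and 0.07, 0.24, -0.17 and -0.52 in mock cells, and its change at 24 h was -0.74 ± 0.12 (adjusted p = 0.0198).

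Phenylalanyl-tRNA synthetase is built from an alpha subunit, encoded by Farsa, and a beta subunit, encoded by Farsb. Farsb had 0.42, 0.26, -0.50 and -0.26 in ASXL1-MT cells and 0.32, 0.37, -0.60 and -0.60 in mock cells. It was already low at 6 h, with a change of -0.92 ± 0.13 (adjusted p = 0.0246), and changed by -0.80 ± 0.13 at 24 h (adjusted p = 0.0215). Farsa stood at 0.28, 0.13, -0.12 and -0.37 in ASXL1-MT cells and 0.25, 0.12, -0.29 and -0.65 in mock cells. Its change was -0.47 at 6 h, which did not pass (adjusted p = 0.0574), and -0.77 ± 0.11 at 24 h (adjusted p = 0.0156). With the mean of its 4 probe sets Farsa changed by -0.42 at 24 h and was no longer called (adjusted p = 0.0568).

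The threonyl enzyme Tars was low at both times too. It had 0.54, 0.47, -0.31 and -0.40 in ASXL1-MT cells and 0.31, 0.46, -0.45 and -0.38 in mock cells, with changes of -0.80 ± 0.10 at 6 h (adjusted p = 0.0200) and -0.82 ± 0.10 at 24 h (adjusted p = 0.0129). Both cultures were high up to 2 h and low from 6 h on. Nars, for asparagine, had 0.29, 0.30, -0.22 and -0.22 in ASXL1-MT cells and 0.22, 0.22, -0.27 and -0.32 in mock cells, with changes of -0.50 at 6 h (adjusted p = 0.0274) and -0.52 at 24 h (adjusted p = 0.0166). With the mean of its 2 probe sets Nars was not called at 24 h (-0.34, adjusted p = 0.0721).

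Kars and Aars, the lysyl and alanyl enzymes, were called at 24 h but not at 6 h. Kars had 0.09, 0.08, -0.02 and -0.53 in ASXL1-MT cells and 0.06, 0.02, -0.09 and -0.68 in mock cells, so that both 24 h arrays lay apart from the other 6. Its change was -0.68 ± 0.08 at 24 h (adjusted p = 0.0118). Aars had 0.37, 0.36, -0.22 and -0.45 in ASXL1-MT cells and 0.15, 0.31, -0.15 and -0.28 in mock cells, a change of -0.63 ± 0.13 at 24 h (adjusted p = 0.0332). Lars, for leucine, changed by -0.41 at 24 h (adjusted p = 0.0354), and 4 other filters, probe set rules or scalings ended that call, with adjusted p between 0.0538 and 0.103.

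**Figure D2:**
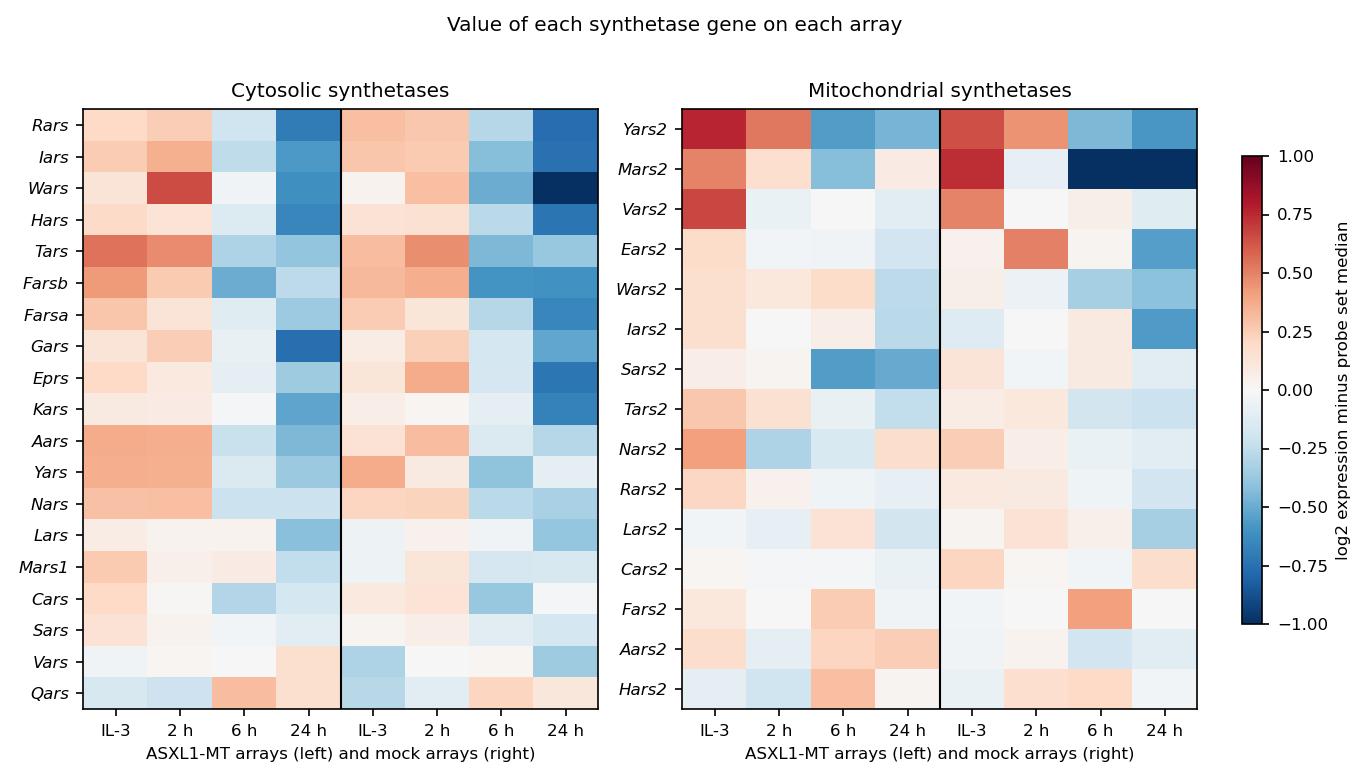
Value of each synthetase gene (rows, ordered by the change at 24 h) on each array (columns, ASXL1-MT left of mock), as log2 expression minus the probe set's median, red above and blue below 0. Most cytosolic rows are red in IL-3 and at 2 h and blue at 6 and 24 h in both cultures, with Qars the other way round, while most mitochondrial rows are pale.

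The 7 cytosolic genes not called at 24 h were Cars, Eprs, Mars1, Qars, Sars, Vars and Yars. Eprs, which charges both glutamate and proline, had the largest change among them, -0.70 ± 0.17 (adjusted p = 0.0523). All its probe sets changed by between -0.83 and -0.63. The -0.83 is from a dim probe set at an estimated level of 6.23, which passed the filter through its IL-3 and 2 h arrays. Another bright probe set of Eprs was called lower when tested on its own by limma (-0.63, adjusted p = 0.0233). Yars had -0.60 ± 0.17 (adjusted p = 0.0758). The changes of Cars, Mars1, Sars and Vars lay between -0.31 and 0.07. Of the 19 cytosolic genes, 15 had all 4 arrays at 6 and 24 h below all 4 in IL-3 and at 2 h, as had 12.5% of all genes tested. Cars, Eprs, Sars and Yars were among these 15 although the test did not call them. Among the mitochondrial genes 3 had this order, Rars2, Tars2 and Yars2.

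Qars, the glutaminyl enzyme, moved against the rest. It stood at -0.16, -0.21, 0.31 and 0.16 in ASXL1-MT cells and at -0.28, -0.11, 0.21 and 0.11 in mock cells, so its 4 later arrays lay above its 4 earlier ones, as did those of 19.0% of all genes. The change was 0.48 ± 0.09 at 6 h (adjusted p = 0.0422), where 9.82% of all genes were called higher, and 0.36 ± 0.09 at 24 h (adjusted p = 0.0604). All 4 of its probe sets changed upwards at both times, by 0.34 to 0.75 at 6 h and by 0.33 to 0.97 at 24 h. The call at 6 h was lost under 4 other filters, probe set rules or scalings, with adjusted p between 0.0506 and 0.114.

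At 6 h, 5 of the 19 cytosolic genes were called lower (Farsb, Tars, Iars, Nars and Rars) and 2 of the 15 mitochondrial genes (Yars2 and Vars2), against 7.24% of all genes tested. The changes of Iars and Rars at this time were -0.61 ± 0.09 (adjusted p = 0.0274) and -0.49 ± 0.09 (adjusted p = 0.0391). The call of Rars was lost under 3 other filters or probe set rules, with adjusted p between 0.0553 and 0.107, and without the filter on dim genes only Yars2 of these 7 was called. The median change was -0.37 over the cytosolic genes, -0.18 over the mitochondrial genes and 0.11 over all genes tested. The comparisons at 6 h and at 24 h share the 2 IL-3 arrays. At 2 h none of the 34 was called by limma, 2 had an unadjusted p under 0.05 (Vars2 at -0.61 and Wars at 0.39), and 0.0077% of all genes were called lower. The median change at 2 h was 0.01 over the cytosolic genes and -0.08 over the mitochondrial genes.

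Set directly against 6 h, the 24 h arrays had a lower Kars, with a difference of -0.55 ± 0.08 (adjusted p = 0.0445), the only synthetase called. Of all genes, 2.65% were called lower and 3.1% higher. Wars (-0.56), Gars (-0.52), Rars (-0.49), Hars (-0.49) and Lars (-0.40) had similar differences, with adjusted p between 0.0542 and 0.082. Tars, Nars and Yars2 differed between the 2 times by -0.01, -0.03 and -0.02, with 95% intervals of -0.29 to 0.27, -0.23 to 0.18 and -0.29 to 0.25. Farsb differed by 0.12, with an interval of -0.24 to 0.48, but its 2 other bright probe sets differed by -0.27 and -0.35, so its course after 6 h depends on the probe set. Whether these genes differ from Kars in their timing was not tested. The call of Kars was lost under 4 other filters, probe set rules or scalings, with adjusted p between 0.0763 and 0.135.

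**Figure D3:**
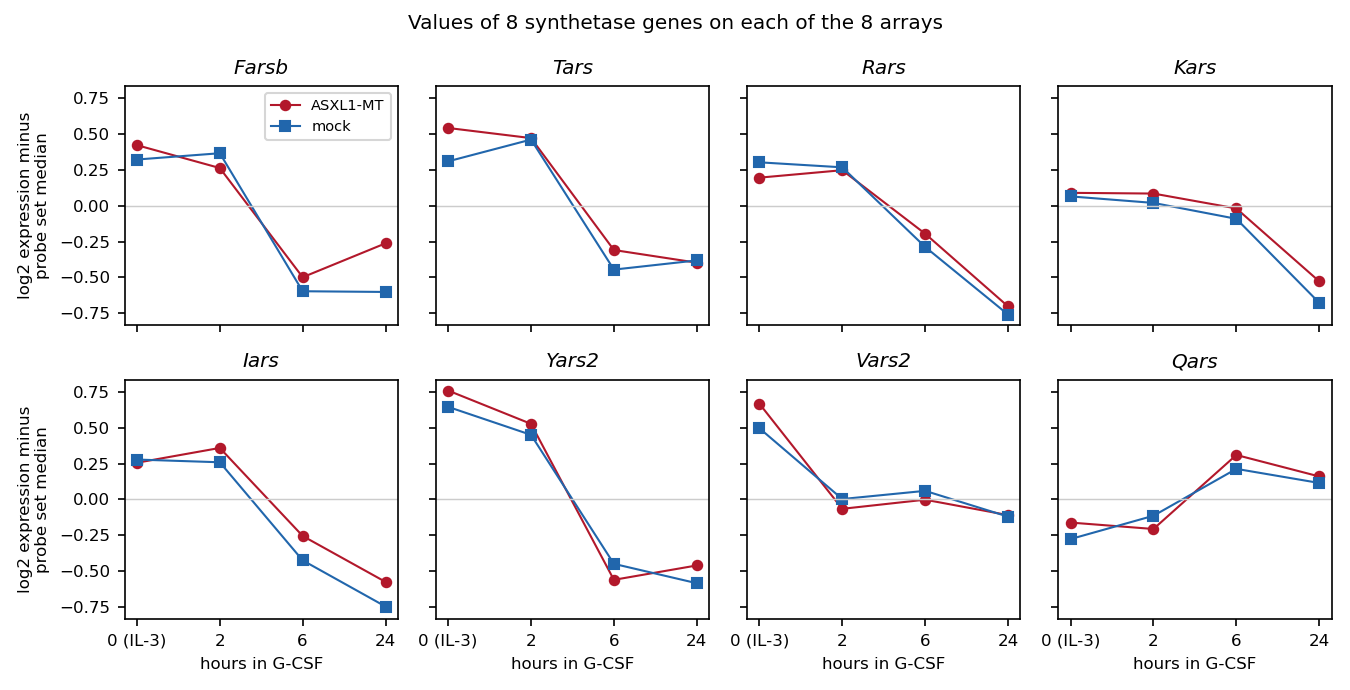
Values of Farsb, Tars, Rars, Kars, Iars, Yars2, Vars2 and Qars on each array (y axis, log2 expression minus the probe set's median) by hours in G-CSF (x axis, evenly spaced, not to scale), ASXL1-MT as red circles and mock as blue squares. The 2 cultures run close together. Farsb, Tars and Yars2 reach low values by 6 h, Kars only at 24 h, and Vars2 by 2 h.

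Yars2 had the largest change of any mitochondrial synthetase that was called. Its values were 0.76, 0.53, -0.56 and -0.46 in ASXL1-MT cells and 0.65, 0.45, -0.45 and -0.59 in mock cells. The 4 arrays in IL-3 and at 2 h lay above the 4 at 6 and 24 h in both cultures, an order that 12.5% of all genes tested had. The changes were -1.21 ± 0.10 at 6 h (adjusted p = 0.0127) and -1.23 ± 0.10 at 24 h (adjusted p = 0.00733). Its second probe set changed by -1.16 and -1.09 and was called at both times.

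Vars2, for mitochondrial valine, had another course. It stood at 0.67, -0.07, -0.00 and -0.11 in ASXL1-MT cells and at 0.50, 0.00, 0.06 and -0.12 in mock cells, so that on this probe set the IL-3 arrays alone were high. The changes were -0.61 at 2 h (adjusted p = 0.349), -0.55 at 6 h (adjusted p = 0.0368) and -0.70 at 24 h (adjusted p = 0.0165). It was read from a dim probe set, whose estimated level of 6.02 lay under the filter level. It passed the filter because its second-highest array, that of mock cells in IL-3, lay at 6.52. The IL-3 arrays that let Vars2 be tested are thus those it was called lower against. Its second probe set changed by -0.04 at 2 h, -0.37 at 6 h and -0.15 at 24 h. With a prior that follows the level the calls at 6 h and 24 h were lost (adjusted p = 0.371 and 0.241), 3 other filters or probe set rules also ended the call at 6 h, and the mean of both probe sets that at 24 h (adjusted p = 0.0521). Tars2 had 0.27, 0.15, -0.07 and -0.25 in ASXL1-MT cells and 0.07, 0.11, -0.18 and -0.21 in mock cells, a change at 24 h of -0.40 ± 0.09 (adjusted p = 0.0481), a call that 4 other filters, probe set rules or scalings ended.

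The other 12 mitochondrial genes were not called on the probe sets used. Mars2 had the largest change, -1.43 ± 0.39 at 6 h (adjusted p = 0.0805) and -1.14 at 24 h (adjusted p = 0.107), on a dim probe set. The remaining 11 lay between -0.48 and 0.08 at 24 h. With every probe set tested on its own by limma, 4 of 29 mitochondrial probe sets were called lower at 24 h and 0 higher, near the 11.8% of all genes called lower in the main fit. Among them was a second probe set of Wars2, at -0.57 (adjusted p = 0.0423). Of the 39 cytosolic probe sets tested, 20 were called lower and 1 higher. Those lower include a dim probe set of Farsa, at an estimated level of 6.21, under the filter level. Its second-highest array, that of mock cells in IL-3, let it pass at 6.54. Ears2, Mars2 and Vars2 were read from probe sets at an estimated level under 8, while all 19 cytosolic genes lay above it. Among the 12 mitochondrial genes at that level or above, 2 were called lower at 24 h, near the share of all genes, and the median change was -0.29. The median SE of the change was 0.107 over the cytosolic and 0.129 over the mitochondrial genes.

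The 2 compartments were also set side by side by amino acid, for the 13 amino acids whose mitochondrial symbol is the cytosolic one ending in 2. This rule left out phenylalanine, with Farsa at -0.77, Farsb at -0.80 and Fars2 at -0.05 at 24 h. It also left out glutamate, with Eprs at -0.70 and Ears2 at -0.48. The cytosolic enzyme had the more negative change in 9 of 13 pairs at 6 h and in 9 of 13 at 24 h, with a median difference of -0.16 and -0.23. Among the 13 pairs, the largest differences at 24 h that way were for histidine (Hars -0.86, Hars2 0.08), arginine (Rars -0.98, Rars2 -0.29) and alanine (Aars -0.63, Aars2 -0.00). Methionine, serine, tyrosine and valine went the other way, with Vars at 0.07 against Vars2 at -0.70 for valine, and Yars at -0.60 against Yars2 at -1.23 for tyrosine. The median change of the cytosolic genes at 24 h was -0.64 within ASXL1-MT cells and -0.60 within mock cells, that of the mitochondrial genes -0.38 and -0.36. No test of the difference between compartments was made, since the genes are not replicates of a compartment.

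Within the cytosolic enzymes, 8 of the 9 class II genes were called lower at 24 h (median change -0.74) and 4 of the 9 class I genes (median -0.41), with Eprs, which holds both classes, counted in neither. The share over all genes tested was 11.8%, for these counts and for those by complex. Of the 7 genes of the multisynthetase complex measured (Eprs, Iars, Kars, Lars, Mars1, Qars and Rars), 4 were called lower at 24 h, and of the 12 outside it 8. Both groups had a median change of -0.68 at 24 h. At 6 h the medians were -0.15 in the complex and -0.46 outside it.

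All 3 scaffold genes of that complex were called lower at 24 h and 2 of them at 6 h, against 11.8% and 7.24% of all genes tested. Aimp2 had 0.61, 0.64, -0.45 and -0.49 in ASXL1-MT cells and 0.55, 0.45, -0.64 and -0.71 in mock cells, with changes of -1.13 ± 0.09 at 6 h (adjusted p = 0.0123) and -1.19 ± 0.09 at 24 h (adjusted p = 0.00671). Eef1e1 had 0.76, 0.26, -0.92 and -0.24 in ASXL1-MT cells and 0.72, 0.24, -1.23 and -0.43 in mock cells. Its lowest arrays were at 6 h in both cultures, with a change of -1.82 ± 0.11 there (adjusted p = 0.0123), and it was higher at 24 h than at 6 h by 0.75 (adjusted p = 0.0445), a call that 4 other filters, probe set rules or scalings ended, with adjusted p between 0.0711 and 0.124. Aimp1 was called at 24 h, at -0.51 (adjusted p = 0.0333), and lost the call without the filter (adjusted p = 0.0884) and after quantile normalization (adjusted p = 0.0644).

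Genes that make and modify tRNA were counted as well. Of 59 tested genes of tRNA transcription, processing and modification, 23 were called lower and 2 higher at 6 h, and 31 lower and 1 higher at 24 h, with a median change of -0.61 at 24 h. The lowest were Dus2, a dihydrouridine synthase (-2.79 at 24 h), Trmt61a, a subunit of the enzyme that methylates adenosine in tRNA (-2.28 at 6 h), Mettl1, a tRNA guanosine methyltransferase (-1.86 at 24 h), and Polr3e, a subunit of RNA polymerase III (-1.75 at 6 h). Maf1, the repressor of RNA polymerase III, was among those higher, by 0.98 at 6 h (adjusted p = 0.0127) and 0.60 at 24 h (adjusted p = 0.0156). Of 12 other tRNA charging and editing enzymes, 3 were called lower at 24 h, Pstk (-0.78), Gatc (-0.67) and Qrsl1 (-0.62). The shares over all genes tested were 7.24% lower and 9.82% higher at 6 h, and 11.8% lower and 14.6% higher at 24 h.

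Translation factors were counted in the same way. Of 8 mitochondrial translation factors 5 were called lower at 24 h, led by the elongation factors Tufm (-1.02) and Tsfm (-0.98), and none higher. Of 6 cytosolic elongation factor genes 1 was called lower at 24 h, Eef1d (-0.70), and 1 higher, Eef2k (0.92), the kinase that inhibits EEF2. Of all genes tested, 11.8% were called lower and 14.6% higher at 24 h, so 1 of 6 each way is near those shares. The amino acid transporters had 4 of 14 called lower at 6 h, against 7.24% of all genes tested. They were led by Slc7a1, the carrier of cationic amino acids (-2.13), and Slc1a4, a carrier of neutral amino acids (-1.94). At 24 h 5 of 14 were lower and 2 higher, the latter near the share of all genes.

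**Figure D4:**
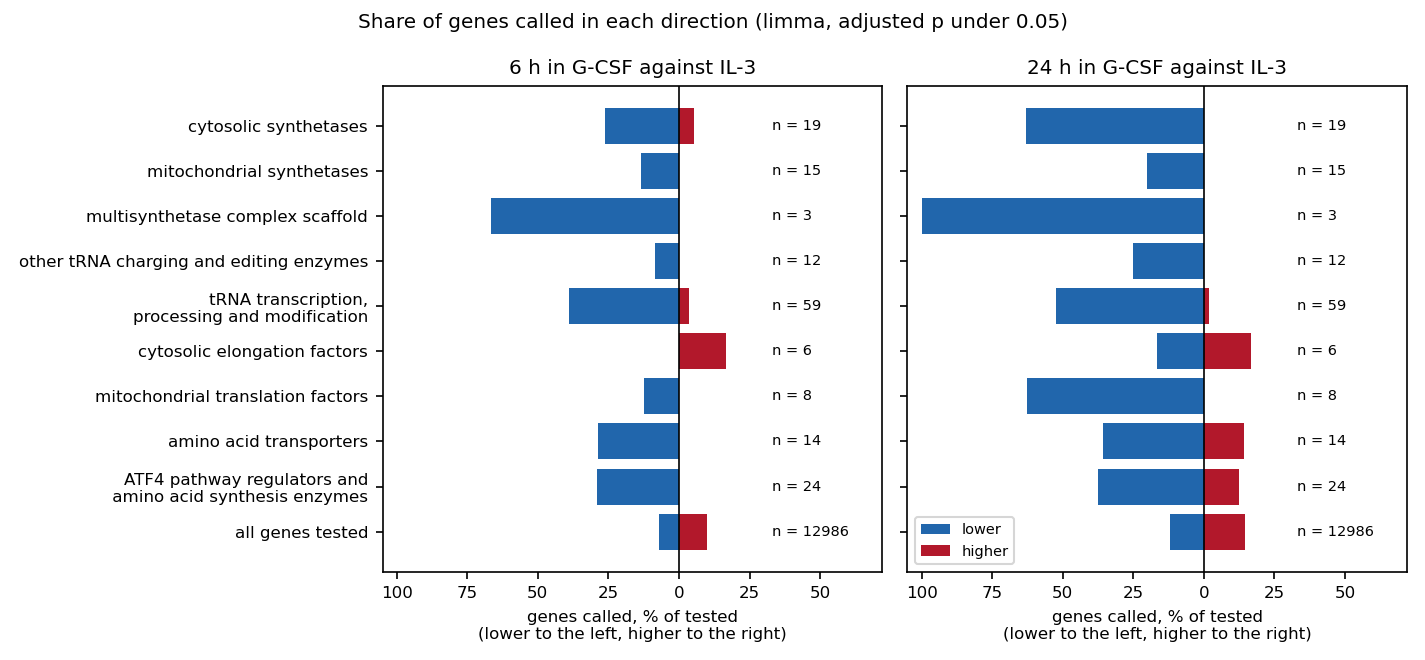
Share of tested genes called lower (blue, left) and higher (red, right) at 6 h and 24 h in G-CSF against IL-3, for the synthetases, the gene lists around them and all genes tested, with the number tested. At 24 h the bars of the cytosolic synthetases (12 of 19), the scaffold (3 of 3), the tRNA genes (31 of 59) and the mitochondrial translation factors (5 of 8) reach farther left than that of all genes (11.8%).

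Atf4 stood at 0.53, 0.39, -1.86 and -0.14 in ASXL1-MT cells and at 0.19, 0.14, -1.53 and -0.45 in mock cells. Both 6 h arrays lay far below the others, with a change of -2.05 ± 0.20 (adjusted p = 0.0147). At 24 h the change was -0.65 (adjusted p = 0.0908), and Atf4 was higher than at 6 h by 1.40 (adjusted p = 0.0445). With the mean of its probe sets the change at 6 h was -1.27 and still called, and the difference between 24 and 6 h was 0.79 and not called (adjusted p = 0.131). Another 3 filters, probe set rules or scalings also ended that second call. Of 24 tested genes of the ATF4 pathway and amino acid synthesis, 7 were called lower and none higher at 6 h, among them Mthfd2, an enzyme of mitochondrial folate metabolism (-1.48), and Trib3, an ATF4 target that feeds back on it (-1.37). At 24 h 9 were lower and 3 higher, with Got1, the cytosolic aspartate aminotransferase, at -1.08. The shares over all genes tested were 7.24% lower at 6 h, and 11.8% lower and 14.6% higher at 24 h.

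Myc had 0.85, -1.07, -0.32 and 0.54 in ASXL1-MT cells and 0.69, -1.25, -0.64 and 0.32 in mock cells. It was lowest at 2 h in both cultures, with changes of -1.93 ± 0.08 at 2 h (adjusted p = 0.0633), -1.25 ± 0.08 at 6 h (adjusted p = 0.0123) and -0.34 at 24 h (adjusted p = 0.0534). Mxd1, which competes with MYC for MAX, was higher by 2.21 at 6 h and by 3.47 at 24 h (adjusted p = 0.00509). Of the 7 genes of this list tested, 3 were called higher at 24 h, Mxd1, Mxd4 and Mxi1, against 14.6% of all genes tested.

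No synthetase was called between ASXL1-MT and mock cells. Over the 4 time points limma called 0 of the 34 members, and 0 of 12986 genes, at an adjusted p under 0.05, and 1 member had an unadjusted p under 0.05, as had 836 of all genes. That member was Wars, higher in ASXL1-MT cells by 0.33 ± 0.09 (adjusted p = 0.724). The median difference was 0.06 over the cytosolic and 0.01 over the mitochondrial genes. An added effect of ASXL1-MT at 24 h was called for none of the 34, and none had an unadjusted p under 0.05. At single time points, with 1 array on each side and no test, the 1 difference of 1 or more was in the dim probe set of Mars2 at 24 h, 0.08 in ASXL1-MT cells and -1.12 in mock cells, whereas 11.6% of all genes differed by that much there.

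The calls depended on every array of a comparison. With either IL-3 array or either array of the tested time left out, limma called 0 of 12986 genes, synthetases included, at 6 h and at 24 h, while 3156 to 3322 genes at 6 h and 3904 to 4120 genes at 24 h kept an unadjusted p under 0.05, among them 8 to 13 and 14 to 17 synthetases. With an array of another time left out, 9 cytosolic and 2 mitochondrial genes were called lower at 24 h, and at 6 h no cytosolic and 1 mitochondrial gene.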

How the data were processed

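RNA of 8 mouse cell line cultures was hybridised to Affymetrix mouse expression arrays. Scanned intensities came from MAS 5.0 per the labels, and RMA is named in the submitters' processing notes. The deposited values are log2 values, which the authors centred so that each probe set has a median of 0 over the 8 arrays. The log base is taken from RMA, and the centring is seen in the values. The labels give 5 µg of RNA in one place and 3 µg in another, and name the 430A array, although 45037 probe sets are listed.

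Because the values are centred, which the planned filter had not assumed, a probe set's level was read from the size of the rounding step in its stored numbers. This estimate, rounded to a whole number, chose each gene's probe set, with ties settled by probe set type and then by name. It also removed genes whose second-highest array lay below the median level of 6.25. The number of arrays limits the precision. Limma 3.58.1 (R 4.3.3) fitted time point and vector to 12986 genes, with Benjamini-Hochberg adjustment over all of them. The level estimate and the limma fit were each tested on simulated data. There the estimate placed probe sets above or below 8 more reliably than above or below the filter level. Passing the filter is therefore less certain for dim genes. Of the probe sets, 34945 had 1 symbol, 932 several and 9160 none in the platform table.

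The members and gene lists were chosen with earlier results of these data known. Values on all arrays are given for the called synthetases with the largest changes at 6 and 24 h (up to 10 cytosolic at each time, every mitochondrial) and for the largest change against the rest. Of each gene list, at most 4 called genes with the largest change are named, with Atf4, Myc and the scaffold genes. Maf1, Prg2, Lcn2, Ngp, Mpeg1, Elane, and the mitochondrial and cytosolic genes named by their range or pair, were added after their values were seen. Alternatives were other filters, probe set rules, scalings, priors and sets of arrays.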

Additional observations from a re-analysis of the deposited data

Results flagged for a closer look

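At 2 h in G-CSF the median change of the 19 cytosolic synthetases against IL-3 was -0.039 in ASXL1-MT cells and 0.044 in mock cells. The 2 cultures moved in opposite directions, and so did the medians of all 12986 genes tested, at -0.022 in ASXL1-MT cells and 0.015 in mock cells. Each value rests on 1 array at each time and the difference was not tested. None of the 34 synthetases was called at 2 h by limma, and 2 had an unadjusted p under 0.05.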

How the results depend on the processing

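Called changes of single genes (34 over synthetases, scaffold genes, Atf4 and Myc) had the same direction in 372 of 372 values under the alternatives and in 272 of 272 with 1 array left out. Many of these values were fixed in advance. In this balanced design the filters, the prior, the vector term and arrays of other times do not alter the estimated change. Only other probe set values, other scalings and leaving out an array of the comparison could move it. The counts moved more. In the main fit 2215 of all 12986 genes were called at 6 h, 3426 at 24 h and 746 at 24 h against 6 h, in either direction. Without the filter on dim genes, 9 members were lower at 24 h (7 cytosolic), 1 lower and 0 higher at 6 h (0 cytosolic, 1 mitochondrial) and 0 at 24 h against 6 h. Of all 18193 genes, 550 were then called at 6 h, 1765 at 24 h and 0 at 24 h against 6 h. The stricter filter, which 31 members passed, gave 13 lower and 2 higher at 6 h (11 cytosolic), 1 higher and 5 mitochondrial lower at 24 h, and 9 lower at 24 h against 6 h. With it 3500 of all 7741 genes were called at 6 h, 4276 at 24 h and 2483 at 24 h against 6 h. The larger counts of members thus came with larger shares over all genes. A prior that follows the level gave 12 lower at 6 h (10 cytosolic), 1 higher and 5 mitochondrial lower at 24 h, and 7 at 24 h against 6 h. It too called more of all 12986 genes, 3242 at 6 h, 4251 at 24 h and 2076 at 24 h against 6 h. With the mean of a gene's probe sets, 1 mitochondrial gene was lower at 6 h and 1 at 24 h, 0 genes were higher at 6 h and 0 lower at 24 h against 6 h. Tested probe set by probe set, those counts were 1 mitochondrial lower and 0 higher at 6 h, and 0 at 24 h against 6 h. Quantile normalization gave 8 cytosolic lower at 6 h and 0 at 24 h against 6 h. Centring each array gave 8 cytosolic lower and 0 higher at 6 h, 5 mitochondrial lower at 24 h, and 2 at 24 h against 6 h. Without a vector term 1 was higher at 24 h and 4 were lower at 24 h against 6 h. At 6 h the mean of probe sets called 1511 of all 12986 genes, single probe sets 1624, quantile normalization 2249, centring 2024 and no vector term 2529. At 24 h these were 2509, 2927, 2659, 3436 and 3727, and at 24 h against 6 h 172, 96, 51, 806 and 1211. With only the 4 arrays compared, all of these counts were 0. Leaving out the 2 h or the 24 h arrays left 1 lower (mitochondrial) and 0 higher at 6 h, and leaving out the 2 h or IL-3 arrays left 0 at 24 h against 6 h. The cause of these shifts was not tested, apart from the fewer genes or arrays entering the fit. The cytosolic median minus the mitochondrial median at 24 h was -0.28, and -0.39, -0.33 and -0.23 with the stricter filter, the mean of probe sets, and Gars and Kars left out. With 1 array left out it ranged from -0.40 to -0.23 at 24 h and from -0.23 to -0.13 at 6 h. The counts then ranged from 0 to 11 lower at 24 h (0 to 9 cytosolic, 0 to 2 mitochondrial) and from 0 to 1 at 6 h (0 cytosolic, 0 to 1 mitochondrial). For ASXL1-MT against mock, leaving out each time point in turn was chosen after seeing the data, and the count stayed 0, as it did under the other alternatives run. The effect at 24 h could not be fitted without the 24 h arrays. The vector term is itself the block of the 2 cultures. The level of dim genes is an estimate, and with 1 array per condition small differences were not detectable.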
